A study of Mus musculus with 16 samples.

Results

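The cell cycle and proliferation genes described here are 45 genes chosen by name, 15 for DNA synthesis (S phase members) and 30 for mitosis and cell division (mitotic members). Of these, 43 were measured among 49452 genes, 13 S phase and 30 mitotic members. *Cdt1* and *Gins2* were not analysed here. Each is given by its FPKM (fragments per kilobase of transcript, set against the mapped fragments of the library) in tdTomato-positive lung cells of 16 mice.

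The study asked how cells that express αSMA and cells that express PDGFRα take part in lung fibrosis, and sequenced the RNA of both from normal and bleomycin-injured lungs. The mice (C57BL6 background, males, 11 weeks old) carried a tamoxifen-responsive Cre driven by the *Acta2* promoter (*Acta2-tdT*, Acta2-CreERT2; tdTomatoflox) or by the *Pdgfra* promoter (*Pdgfra-tdT*), together with a tdTomato reporter that stays on once Cre has acted. They formed 4 groups of 4: *Acta2-tdT* saline (mice 1 to 4), *Acta2-tdT* bleomycin (mice 5 to 8), *Pdgfra-tdT* saline (mice 1 to 4) and *Pdgfra-tdT* bleomycin (mice 5 to 8), all taken 14 days after instillation. All 16 mice received tamoxifen, in food at 400 mg/kg from 5 days after instillation in the *Acta2-tdT* line and as 5 injections of 3 mg at 6 weeks of age in the *Pdgfra-tdT* line. Line and labelling schedule cannot therefore be told apart: *Acta2-tdT* cells were labelled during injury and *Pdgfra-tdT* cells before it. Labelled cells of the left lobe were sorted into lysis buffer and their RNA was amplified by SmartSeq2, a full-length protocol for few cells.

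A cell that divides passes from G1 into S phase, when DNA is copied, and through G2 into mitosis. Genes for DNA synthesis are switched on by E2F factors once the retinoblastoma proteins are phosphorylated. Genes for mitosis follow, through the MuvB complex with B-MYB and FOXM1, which acts at promoter elements known as CHR. In fibrotic lung, mesenchymal cells, macrophages, endothelial and epithelial cells can all enter the cycle, so these genes mark dividing cells and not a cell type.

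Total signal differed widely between the groups. The summed FPKM of nuclear protein-coding genes ranged in *Acta2-tdT* mice from 35602 to 57788 with saline and from 231058 to 463127 with bleomycin. In *Pdgfra-tdT* mice it ranged from 29964 to 59840 and from 28512 to 137952. Differences between groups are therefore given on 2 scales, FPKM as deposited and FPKM scaled to the same nuclear protein-coding sum in each mouse (scaled FPKM). The median log2 difference of all 12523 genes tested between bleomycin and saline *Acta2-tdT* mice was 1.76 as deposited and -0.02 when scaled. Depth is unknown, since FPKM hold no read counts. *Acta2*, which encodes αSMA, had 139 to 314 FPKM in *Acta2-tdT* saline mice and 1229 to 3211 with bleomycin, against at most 19.4 in any *Pdgfra-tdT* mouse. *Pdgfra* had 2.14 to 3.82 FPKM in *Pdgfra-tdT* saline and 0.977 to 2.45 in *Pdgfra-tdT* bleomycin mice, against 0.273 to 0.562 in saline-treated *Acta2-tdT* mice and 2.49 to 11.9 in those given bleomycin. Scaled, *Pdgfra* in the bleomycin mice was 0.529 to 1.26 in the *Acta2-tdT* and 0.873 to 2.33 in the *Pdgfra-tdT* line, 2 ranges that overlap. A pair of *Pdgfra-tdT* mice, saline mouse 3 and bleomycin mouse 5, stood apart. Markers of endothelial cells made up 0.639% and 0.732% of their coding sum, against at most 0.220% in the other *Pdgfra-tdT* mice. Fibroblast markers made up 0.0957% and 0.116%, against at most 0.0425%. The 2 mice also had the largest coding sums of their groups (59840 and 137952) and the most nuclear protein-coding genes at 1 FPKM (6479 and 7909). Results that rest on these 2 mice are given with and without them.

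The promoters of the 2 sets differ in the short motifs known from their control, and a few are shown to give the letters behind the counts. RefSeq promoters (GRCm38.p6, from 250 bases before to 50 bases after the gene start) were found for 36 of the 43 measured genes, as 12 promoters of S phase members and 26 of mitotic members. On both strands, TTCCCGC or TTCGCGC or TTGCCGC or TTGGCGC were searched as E2F words, TTTGAA as the CHR word and CCAAT as the CCAAT box. An E2F word was present in 8 of 12 S phase promoters (66.7%), in 4 of 26 mitotic promoters (15.4%) and in 9.57% of all 32851 promoters. The CHR word was present in 1 S phase promoter (8.33%), that of *Mcm2*, in 20 mitotic promoters (76.9%) and in 17.9% of all promoters. The CCAAT box was present in 75.0%, 80.8% and 37.4%, and CHR word and CCAAT box together in 18 mitotic promoters (69.2%) against 6.95% of all. E2F words can overlap each other, as in *Mcm6*, and overlapped a CCAAT box once in *Ccnb1* and 2 times in a promoter of *Mcm7*. Such matches are letters in a window, not sites shown to be bound.

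**Figure D1:**
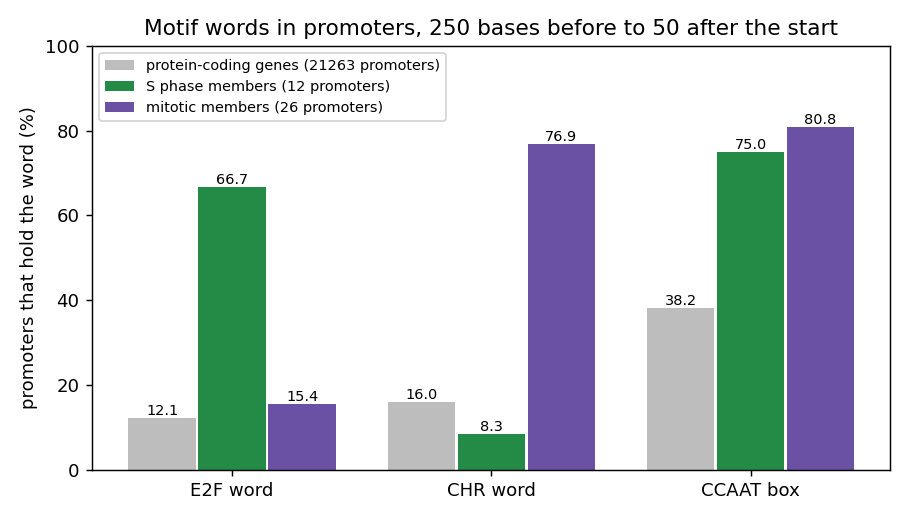
Share of RefSeq promoters (y axis, %) that hold an E2F word, the CHR word or a CCAAT box (x axis), for 21263 promoters of protein-coding genes, 12 of S phase members and 26 of mitotic members. E2F words stand at 66.7% in S phase promoters and the CHR word at 76.9% in mitotic promoters, against 12.1% and 16% for protein-coding genes.

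The 5 promoters printed here run from 250 to 10 bases before the RefSeq start, 5′ to 3′ on the gene's strand, with the words in capitals. *Mcm7* and *Ube2c* are the S phase member and the mitotic member with the largest mean FPKM over the 16 mice among those that hold the E2F word and the CHR word, respectively, in this stretch. *Mcm6*, *Cdk1* and *Cdc20*, described in several comparisons, were added after the words were counted. *Mcm7* (chr5:138171276-138171516, minus strand, inside an intron of longer GENCODE transcripts) and *Mcm6* (chr1:128359715-128359955, minus strand) hold E2F words, in *Mcm6* as 4 overlapping matches in 2 places. *Ube2c* (chr2:164769679-164769919, plus strand) and *Cdc20* (chr4:118437353-118437593, minus strand) hold the CHR word. *Cdk1* (chr10:69352922-69353162, minus strand), transcribed from late G1 onward, holds 2 E2F words and 2 CHR words.
Mcm7: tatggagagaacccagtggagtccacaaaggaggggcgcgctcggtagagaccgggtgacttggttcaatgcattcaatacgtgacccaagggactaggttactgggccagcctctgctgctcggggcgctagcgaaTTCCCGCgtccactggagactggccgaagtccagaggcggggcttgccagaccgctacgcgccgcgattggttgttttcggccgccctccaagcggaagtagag
Mcm6: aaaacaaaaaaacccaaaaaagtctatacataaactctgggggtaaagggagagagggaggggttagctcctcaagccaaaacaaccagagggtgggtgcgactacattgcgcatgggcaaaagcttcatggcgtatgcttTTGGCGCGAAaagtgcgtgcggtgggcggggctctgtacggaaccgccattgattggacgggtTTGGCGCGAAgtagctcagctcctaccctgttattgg
Ube2c: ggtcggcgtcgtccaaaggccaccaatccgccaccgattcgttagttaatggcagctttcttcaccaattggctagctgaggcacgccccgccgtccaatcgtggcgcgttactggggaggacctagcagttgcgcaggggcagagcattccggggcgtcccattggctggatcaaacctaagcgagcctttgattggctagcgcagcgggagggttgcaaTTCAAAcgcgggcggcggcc
Cdc20: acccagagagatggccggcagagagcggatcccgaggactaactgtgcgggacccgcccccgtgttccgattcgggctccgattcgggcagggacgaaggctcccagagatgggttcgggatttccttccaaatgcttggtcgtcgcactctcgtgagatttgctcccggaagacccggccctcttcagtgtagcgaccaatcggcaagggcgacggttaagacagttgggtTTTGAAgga
Cdk1: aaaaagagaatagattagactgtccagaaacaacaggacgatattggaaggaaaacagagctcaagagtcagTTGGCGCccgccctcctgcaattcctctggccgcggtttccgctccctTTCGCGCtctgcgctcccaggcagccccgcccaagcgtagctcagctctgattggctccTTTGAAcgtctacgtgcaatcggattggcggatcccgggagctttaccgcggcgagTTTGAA

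At a level of 1 FPKM few of these genes were seen in saline-treated mice. Of the 43 genes, 6, 7, 9 and 8 reached 1 FPKM in *Acta2-tdT* saline mice 1 to 4, and 8, 7, 10 and 8 in the *Pdgfra-tdT* saline mice. Only *Ube2c*, *Prc1*, *Hmmr*, *Birc5*, *Mcm7* and *Tyms* did so in at least 7 of the 8 saline mice. With bleomycin, 40, 38, 43 and 42 genes reached 1 FPKM in *Acta2-tdT* mice 5 to 8, but 28, 11, 6 and 7 in *Pdgfra-tdT* mice 5 to 8. Over all nuclear protein-coding genes, 3634 to 5891 reached 1 FPKM in *Acta2-tdT* mice with saline and 10016 to 10727 with bleomycin. In *Pdgfra-tdT* mice 2177, 2035, 6479 and 2345 did with saline and 7909, 4718, 4033 and 2220 with bleomycin. Counted at any level, including 1 FPKM and above, 31 to 41 of the 43 genes had a lower bound of FPKM above 0 in each saline mouse.

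The share of the coding sum, which does not depend on the total signal, separated the *Acta2-tdT* bleomycin mice from the other 12 mice in both sets. S phase members together made up 0.0200%, 0.0185%, 0.0184% and 0.0144% in *Acta2-tdT* saline mice 1 to 4 and 0.0418%, 0.0382%, 0.0488% and 0.0471% in *Acta2-tdT* bleomycin mice 5 to 8. In *Pdgfra-tdT* mice the shares were 0.0202% to 0.0261% with saline and 0.0166% to 0.0234% with bleomycin, 2 ranges that overlap. Mitotic members made up 0.0541%, 0.0570%, 0.0401% and 0.0352% in *Acta2-tdT* saline mice and 0.140%, 0.110%, 0.142% and 0.131% in *Acta2-tdT* bleomycin mice. Their shares in *Pdgfra-tdT* mice were 0.0882%, 0.0880%, 0.0274% and 0.0841% with saline and 0.0810%, 0.0505%, 0.0543% and 0.0864% with bleomycin. *Pdgfra-tdT* saline mouse 3, one of the mice that stood apart, had the lowest mitotic share and the highest S phase share of its group. Means were 0.0440% ± 0.0049 (SD, n = 4) for S phase and 0.131% ± 0.015 (SD, n = 4) for mitotic members in *Acta2-tdT* bleomycin mice. The ratio of mitotic to S phase FPKM in *Acta2-tdT* mice was 2.60 ± 0.38 (SD, n = 4) after saline and 2.98 ± 0.25 (SD, n = 4) after bleomycin, with ranges of 2.18 to 3.08 and 2.78 to 3.35 that overlap.

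**Figure D2:**
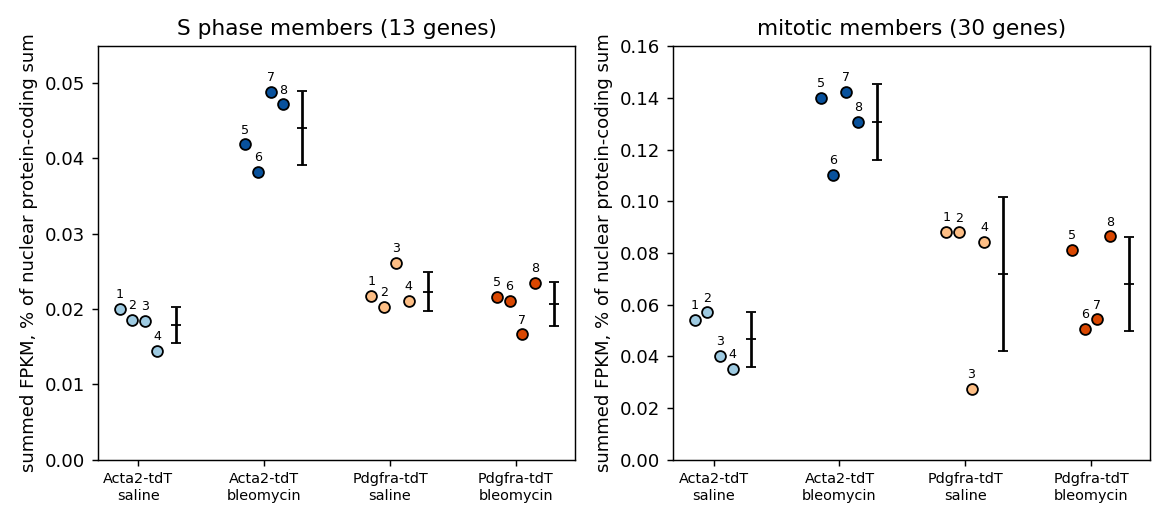
Summed FPKM of the 13 S phase members (left) and the 30 mitotic members (right) as a percent of the nuclear protein-coding sum (y axis) in each of the 16 mice, numbered, by group (x axis), with group mean and SD as bars. The *Acta2-tdT* bleomycin mice sit at 0.0382% to 0.0488% and 0.110% to 0.142%, above all other mice.

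The mitotic share in saline mice came largely from a few genes. The 4 mitotic members listed above 1 FPKM in saline mice (*Ube2c*, *Prc1*, *Hmmr* and *Birc5*) held 46.3% to 59.0% of the mitotic sum in *Acta2-tdT* saline mice and 25.8% to 27.9% in *Acta2-tdT* bleomycin mice. The other 26 mitotic members made up 0.0150% to 0.0234% of the coding sum in *Acta2-tdT* mice with saline and 0.0793% to 0.106% with bleomycin. In *Pdgfra-tdT* mice they made up 0.0146% to 0.0369% and 0.0262% to 0.0580%. Since these 6 genes were chosen for their saline values, this is a description. In order of mean FPKM, *Hmmr* (4.50), *Birc5* (2.79) and *Ube2c* (2.31) led in *Acta2-tdT* saline mice, and *Birc5* (77.4), *Cenpa* (56.9) and *Ube2c* (37.4) in *Acta2-tdT* bleomycin mice.

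The first comparison asked what bleomycin changed in *Acta2-tdT* cells. With FPKM as deposited, 35 of the 36 genes tested rose and none fell, where 70.4% of all genes tested rose and 16.3% fell; among nuclear protein-coding genes 89.7% rose and 4.67% fell. With scaled FPKM, 29 of the 36 rose and 1, *Hmmr*, fell, where 23.9% of all genes tested rose and 32.6% fell, or 31.1% and 17.0% of nuclear protein-coding genes. The rises were 7 of 10 S phase and 22 of 26 mitotic members. Over all measured members the median scaled log2 difference was 0.66 for the 13 S phase and 0.71 for the 30 mitotic members. It was -0.02 for all genes tested, coding and non-coding. A median over nuclear protein-coding genes alone, of which more rose than fell, was not computed. Every bleomycin mouse lay above every saline mouse in 42 of 43 genes as deposited (35 of the 36 tested), beside 67.8% of all genes tested. In no gene did all bleomycin mice lie below, beside 12.5%. When scaled, all bleomycin mice lay above in 28 of 43 genes (28 of the 36 tested), beside 21.5%, and below in 1, beside 29.6%. These shares are over coding and non-coding genes, and were not computed for nuclear protein-coding genes alone. Of the 36 genes, 27 reached 1 FPKM in no saline mouse and so were tested only through their bleomycin values, which makes the counts among tested genes a description. With the filter repeated without any one of the bleomycin mice, 9 genes were tested, of which 8 rose as deposited, and 5 or 6 rose and 1 fell when scaled. The other 7 (*Mcm4*, *Ccne1*, *Ccne2*, *Bub1*, *Bub1b*, *Cenpf* and *Kif11*) were not tested. Tests are limma on log2(FPKM + 1) with Benjamini-Hochberg adjustment over all genes tested, and differences are on that log2 scale, which understates changes of low genes.

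Markers of cell types are given beside these results. Of 71 markers of 10 cell types, 15 rose and 11 fell of 50 tested in *Acta2-tdT* cells when scaled, beside 31.1% and 17.0% of nuclear protein-coding genes. Fibroblast markers rose in 6 of 6 tested, and their sum was 0.0517% to 0.0673% of the coding sum in saline and 0.446% to 0.679% in bleomycin mice. Macrophage markers rose in 5 of 8 tested, with sums of 0.148% to 0.514% in saline and 0.523% to 1.67% in bleomycin mice. Neutrophil markers fell in 5 of 6 tested, with sums of 2.07% to 3.04% in saline and 0.263% to 1.79% in bleomycin mice. Sums were also lower without overlap in bleomycin mice for endothelial (0.0156% to 0.0240% in saline, 0.00625% to 0.0108% in bleomycin), lymphocyte (0.0113% to 0.0166% and 0.00162% to 0.00438%) and pericyte markers (0.0170% to 0.0250% and 0.0123% to 0.0159%). Sums overlapped for smooth muscle (0.874% to 1.29% in saline, 0.750% to 1.16% in bleomycin) and pan-leukocyte markers (0.218% to 0.329% and 0.185% to 0.328%). They also overlapped for epithelial (0.127% to 1.62% and 0.0775% to 0.490%) and erythroid markers (0.00408% to 0.0455% and 0.0176% to 0.0310%). No marker of these 10 lists was at 0 in all mice of either group. In bulk RNA, more dividing cells and more of this RNA per cell cannot be told apart, and the part of each cell type in the results was not tested.

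**Figure D3:**
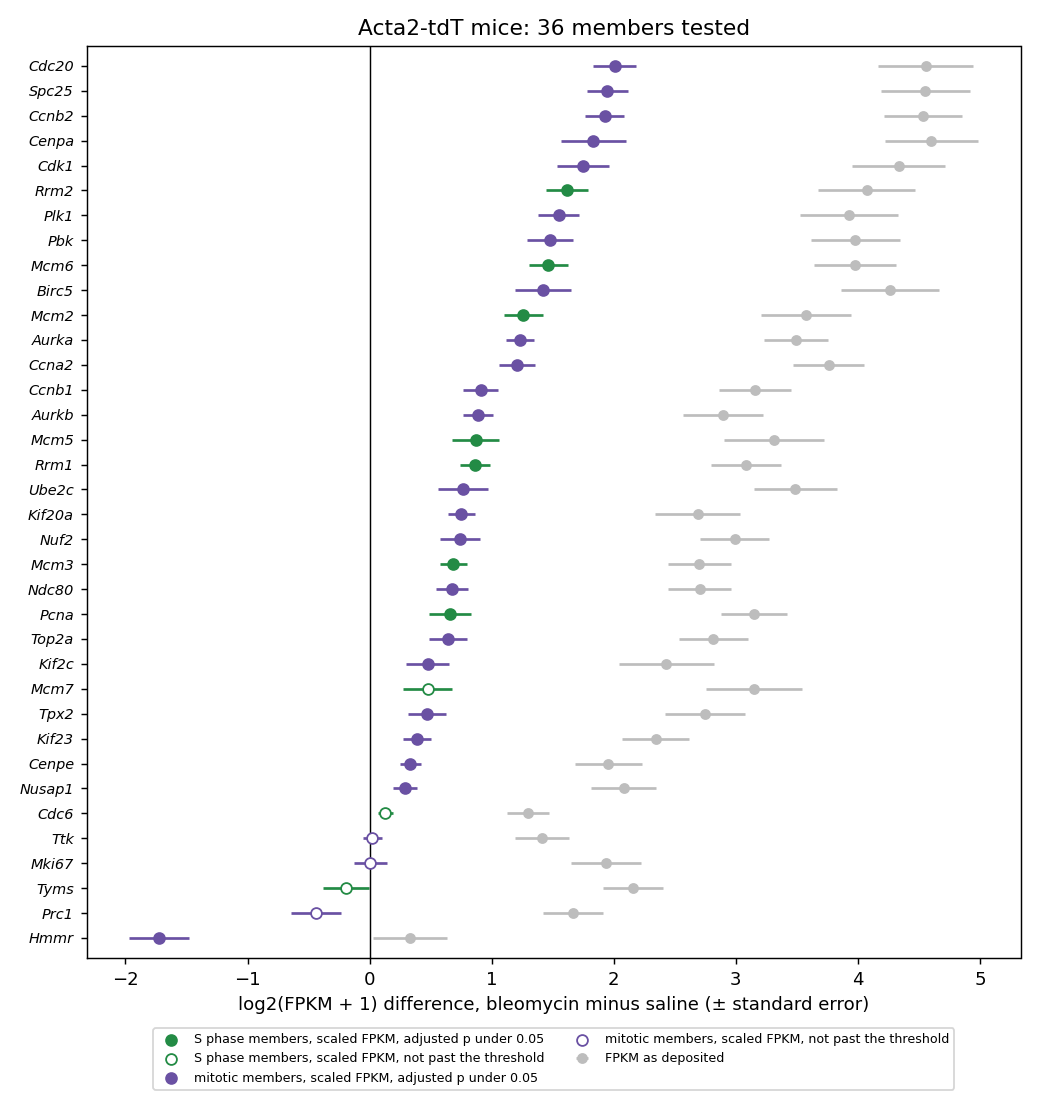
Difference of mean log2(FPKM + 1), bleomycin minus saline, in *Acta2-tdT* mice (x axis, with standard error) for the 36 genes tested (y axis), with scaled FPKM in green (S phase) or violet (mitotic), filled where the adjusted p is under 0.05, and FPKM as deposited in grey. Scaled differences run from 2.01 for *Cdc20* to -1.73 for *Hmmr*, and *Mki67* lies at 0.00.

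Among S phase members, the MCM helicase, the ring of 6 proteins that unwinds DNA at replication forks, rose in 4 of its 5 tested subunits when scaled. *Mcm6* had 0.380, 0.148, 0.652 and 0.470 FPKM in saline mice 1 to 4 and 19.3, 11.7, 29.8 and 28.6 in bleomycin mice 5 to 8. The groups were far apart, and the difference was 3.97 (standard error 0.34, adjusted p = 1.25e-05) as deposited and 1.46 (standard error 0.16, adjusted p = 4.48e-05) when scaled. *Mcm7* had 2.03, 2.30, 2.47 and 2.35 FPKM in saline and 25.1, 13.5, 43.7 and 41.2 in bleomycin mice. Its groups were also apart as deposited, with a difference of 3.15, but its scaled difference of 0.47 (standard error 0.20, adjusted p = 0.0708) did not pass. *Mcm2*, *Mcm5* and *Mcm3* rose on both scales, and *Mcm4* reached at most 5.54 FPKM.

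*Pcna*, the sliding clamp of the DNA polymerases, had 0.776, 0.812, 1.55 and 1.45 FPKM in saline and 15, 16.1, 20.9 and 19.9 in bleomycin mice. All bleomycin mice were above all saline mice, and the scaled difference was 0.66 (standard error 0.17, adjusted p = 0.00915). *Cdc6*, which loads the helicase at origins, was low, at 0.107, 0.108, 0.208 and 0.0782 FPKM in saline and 1.28, 1.46, 1.86 and 2.62 in bleomycin mice. It rose as deposited, by 1.30, and its scaled difference was 0.13 (adjusted p = 0.0933).

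Deoxynucleotide supply was uneven. *Rrm2*, the regulated subunit of ribonucleotide reductase, had 0.202, 0.107, 0.118 and 0.214 FPKM in saline and 15.9, 7.98, 30.1 and 29.7 in bleomycin mice. It rose by 4.07 (standard error 0.40, adjusted p = 1.67e-05) as deposited and by 1.62 (standard error 0.17, adjusted p = 4.48e-05) when scaled, the largest rise among S phase members. *Tyms*, thymidylate synthase, had 1.72, 1.85, 1.73 and 1.65 FPKM in saline and 12.9, 9.21, 10.8 and 12.2 in bleomycin mice. As deposited its bleomycin mice were all higher and it rose by 2.16, but scaled values overlapped, with a difference of -0.19 (standard error 0.19, adjusted p = 0.409). Both E cyclins, which drive entry into S phase, were too low to test. *Ccne1* had 0.112, 0.179, 0 and 0 FPKM in saline and 0.512, 1.72, 1.71 and 4.34 in bleomycin mice, and *Ccne2* had at most 0.424 in saline and 0.652 to 2.69 in bleomycin mice.

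Among mitotic members, all 4 of the A and B cyclins and their kinase rose on both scales. *Ccnb2*, a B-type cyclin, had 0.319, 0.192, 0.515 and 0.439 FPKM in saline and 26.2, 19.4, 46.9 and 35.9 in bleomycin mice. *Cdk1*, the kinase that drives mitosis, had 0.223, 0.235, 1.11 and 0.370 FPKM in saline and 30.4, 14.1, 33.0 and 44.0 in bleomycin mice. Neither gene overlapped between the groups. The scaled rise was 1.92 (standard error 0.16, adjusted p = 2.28e-05) for *Ccnb2* and 1.75 (standard error 0.22, adjusted p = 9.84e-05) for *Cdk1*. *Ccna2* rose by 1.21 and *Ccnb1* by 0.91 when scaled.

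Of 7 mitotic kinases, 5 were tested and 4 rose when scaled. *Plk1*, which acts from mitotic entry to cytokinesis, had 0.0975, 0.0512, 0.0216 and 0.168 FPKM in saline and 11.2, 7.23, 23.5 and 29.1 in bleomycin mice. *Pbk*, a mitotic kinase, had 0.485, 0.154, 0.483 and 0.181 FPKM in saline and 12.9, 12.3, 28.8 and 32.7 in bleomycin mice. *Aurka*, the kinase of spindle poles, had 0.0422, 0.0552, 0.187 and 0.167 FPKM in saline and 12.1, 7.39, 15.9 and 12.2 in bleomycin mice. None of the 3 overlapped, and their scaled rises were 1.55, 1.48 and 1.23 (adjusted p = 5.08e-05, 0.000118 and 2.47e-05). *Aurkb* rose by 0.89, and *Ttk*, a kinase of the spindle checkpoint, had a scaled difference of 0.02 (adjusted p = 0.837).

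Both partners of the anaphase-promoting complex rose. *Cdc20*, its activator, had 0.141, 0.0791, 0.156 and 0.140 FPKM in saline and 25.7, 11.1, 33.4 and 43.4 in bleomycin mice. *Ube2c*, its ubiquitin-conjugating enzyme, had 2.63, 1.70, 2.11 and 2.80 FPKM in saline and 24.6, 28.4, 47.3 and 49.3 in bleomycin mice. Both separated the groups, *Cdc20* from near 0 and *Ube2c* from a level seen in every saline mouse. Scaled, *Cdc20* rose by 2.01 (standard error 0.18, adjusted p = 2.28e-05), the largest of all 36 genes, and *Ube2c* by 0.76 (standard error 0.21, adjusted p = 0.0107).

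All 5 tested members of centromere and kinetochore rose when scaled. *Cenpa*, the histone of centromeres, had 0.733, 1.70, 1.46 and 1.16 FPKM in saline and 76.4, 26.9, 61.8 and 62.5 in bleomycin mice. *Spc25*, of the NDC80 complex that holds microtubules, had 0.283, 0.178, 0.575 and 0.349 FPKM in saline and 25.2, 16.3, 45.7 and 44.8 in bleomycin mice. Neither overlapped, and their scaled rises were 1.83 (standard error 0.27, adjusted p = 0.000289) and 1.95 (standard error 0.17, adjusted p = 2.28e-05). *Ndc80* and *Nuf2* of the same complex also rose.

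Of 7 spindle and midzone members tested, 5 rose and 1 fell when scaled. Of the 5 rises, that of *Kif2c* was lost in 6 of 8 fits that left out 1 mouse, that of *Nusap1* in 5 and that of *Tpx2* in 4, and all 3 were lost without *Acta2-tdT* saline mouse 3 or 4 or bleomycin mouse 7. *Tpx2*, which activates Aurora A on the spindle, had 0.775, 0.589, 0.666 and 0.631 FPKM in saline and 7.80, 5.91, 17.5 and 13 in bleomycin mice. It rose by 2.75 as deposited and by 0.47 (standard error 0.16, adjusted p = 0.0265) when scaled, without overlap as deposited. *Hmmr*, a spindle protein that is also a hyaluronan receptor, had 4.51, 5.81, 3.25 and 4.41 FPKM in saline and 5.07, 3.74, 7.84 and 7.46 in bleomycin mice. Its groups overlapped, with a difference of 0.33 (standard error 0.31, adjusted p = 0.323) as deposited. Scaled, its values were 6.02, 8.02, 3.29 and 3.75 in saline and 0.782, 0.796, 0.884 and 0.791 in bleomycin mice, every one lower, and it fell by 1.73 (standard error 0.24, adjusted p = 0.00024). *Prc1*, which bundles midzone microtubules, rose by 1.66 (adjusted p = 0.000114) as deposited and had a scaled difference of -0.44 (adjusted p = 0.0956).

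Of the chromosome proteins, *Birc5*, the survivin subunit of the chromosomal passenger complex, had 2.53, 2.82, 2.55 and 3.26 FPKM in saline and 79.8, 33.6, 97.3 and 98.8 in bleomycin mice. *Top2a*, the topoisomerase that untangles replicated DNA, had 0.477, 0.396, 0.312 and 0.223 FPKM in saline and 10.3, 4.92, 12.2 and 8.19 in bleomycin mice. *Mki67*, the coat protein of mitotic chromosomes used as the Ki-67 marker, had 0.699, 0.511, 0.890 and 0.642 FPKM in saline and 6.47, 2.91, 8.38 and 5.26 in bleomycin mice. As deposited, none of the 3 overlapped. When scaled, *Birc5* rose by 1.42 (standard error 0.23, adjusted p = 0.00056) and *Top2a* by 0.64 (standard error 0.15, adjusted p = 0.00572). *Mki67* had scaled values of 0.931, 0.705, 0.901 and 0.546 in saline and 0.999, 0.619, 0.944 and 0.558 in bleomycin mice. The ranges overlapped, with bleomycin mice 5 and 7 above all saline mice, and gave a difference of 0.00 (standard error 0.14, adjusted p = 0.979). Among the *Acta2-tdT* bleomycin mice, mouse 6 was the lowest for 36 of 43 genes as deposited and for 19 when scaled.

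**Figure D4:**
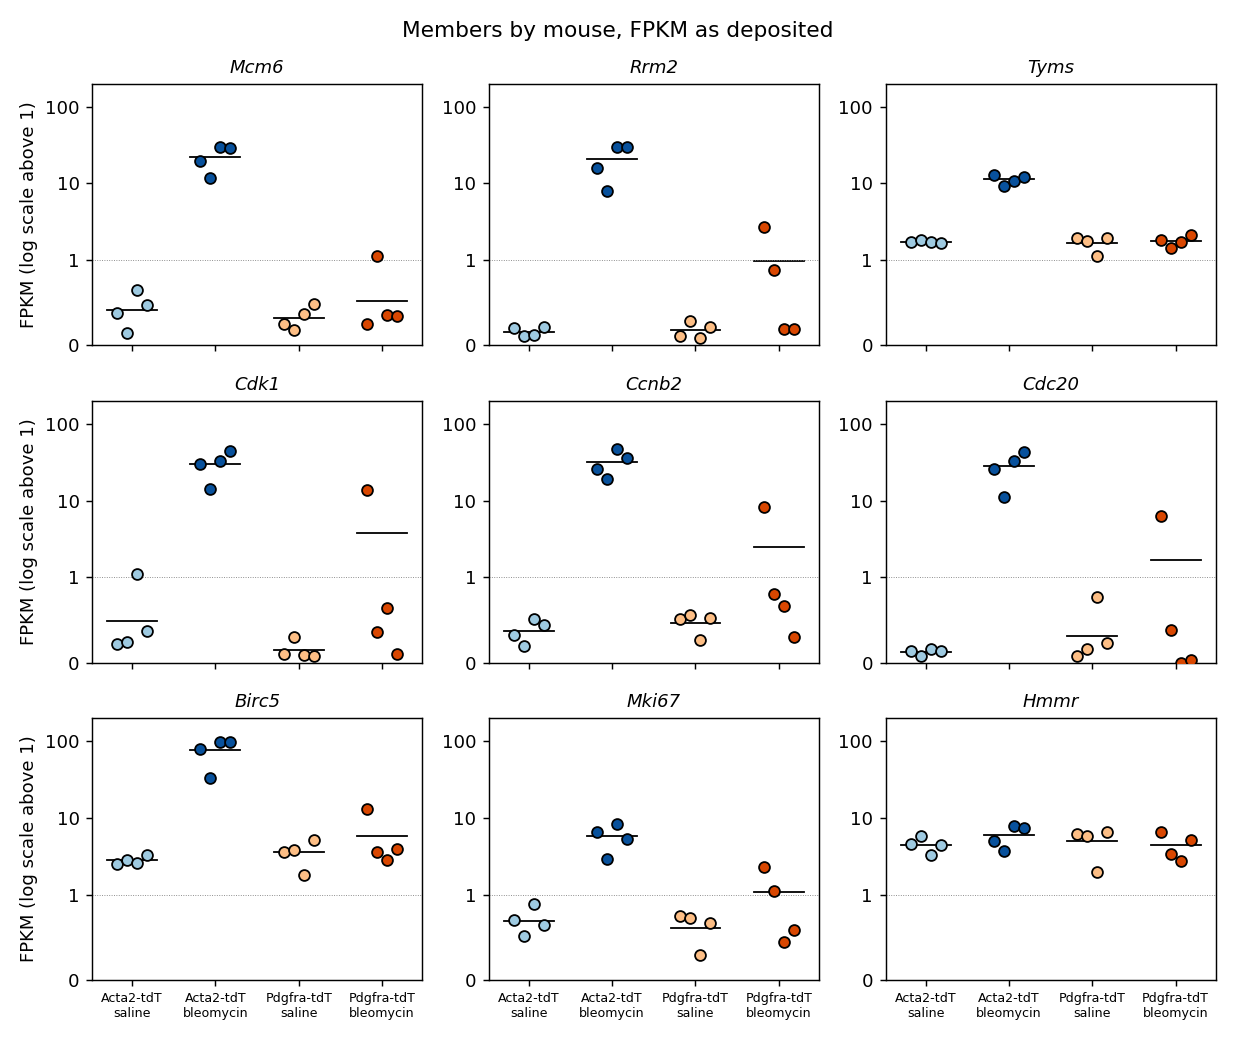
FPKM as deposited (y axis, linear up to 1 and logarithmic above) of 9 genes in the 16 mice by group (x axis), with each mouse as a point and the group mean as a line. *Acta2-tdT* bleomycin mice lie above all other mice for 8 genes other than *Hmmr*, and *Cdk1* reaches 14.0 in *Pdgfra-tdT* bleomycin mouse 5.

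In *Pdgfra-tdT* cells bleomycin changed none of the genes tested past the threshold. Only 8 of the 43 could be tested, and 0 were called, where 0.0275% of all genes tested rose and 0.0962% fell as deposited, or 0.0275% and 0.110% when scaled. None of the 8 had an unadjusted p-value under 0.05 in limma on either scale, and the smallest adjusted p was 0.791 as deposited and 0.776 when scaled. Differences ran from -0.18 to 1.12 as deposited, the largest being *Cenpa* (standard error 0.61), and from -0.58 to 0.65 when scaled. No gene of the 43 had all bleomycin mice above or below all saline mice, beside 1.43% and 1.15% of genes tested. Fibroblast markers made up 0.0244% to 0.0957% of the coding sum in *Pdgfra-tdT* saline and 0.00831% to 0.116% in *Pdgfra-tdT* bleomycin mice. In *Acta2-tdT* bleomycin mice they made up 0.446% to 0.679%. The part of cell types in these results was not tested.

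*Pdgfra-tdT* bleomycin mouse 5 differed from its group. *Cdk1* was at 14.0, 0.358, 0.644 and 0.0950 FPKM in mice 5 to 8, *Ccnb2* at 8.26, 0.807, 0.662 and 0.296 and *Cdc20* at 6.32, 0.379, 0 and 0.0286. In each of these genes mouse 5 was the highest and the other 3 lay below 1 FPKM, as did all 4 saline mice. Mouse 5 was the highest of its group for 32 of 43 genes as deposited. When scaled it was the highest for 18 and the lowest for 15. Scaled *Cdk1* in this mouse, at 4.97, was above the *Acta2-tdT* bleomycin mice (2.99 to 4.70), whereas scaled *Mcm6*, at 0.0908, was below them (2.48 to 3.36). Its endothelial markers are given above, and macrophage markers made up 1.31% to 3.74% of the coding sum in *Pdgfra-tdT* bleomycin mice against 0.0581% to 0.263% with saline. Their part in these values was not tested. Leaving out this mouse, 0 genes were again called between the groups.

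The lines did not differ past the threshold with saline. Of 7 genes tested, 0 were called on either scale, where of all genes tested *Acta2-tdT* cells had 2.72% higher and 0.184% lower as deposited, or 3.20% and 0.221% when scaled. None of the 7 had an unadjusted p-value under 0.05 in limma. The smallest adjusted p was 0.377 as deposited and 0.367 when scaled. *Ube2c* had 2.63, 1.70, 2.11 and 2.80 FPKM in *Acta2-tdT* and 3.40, 5.07, 2.76 and 5.35 in *Pdgfra-tdT* saline mice. These ranges overlapped at the values of *Acta2-tdT* mouse 4 and *Pdgfra-tdT* mouse 3, and the difference was -0.61 (standard error 0.27, adjusted p = 0.377). Among genes not tested, *Kif23* was higher without overlap in *Acta2-tdT* saline mice on both scales (0.270 to 0.538 against 0.0478 to 0.167 FPKM). *Mcm5* was lower without overlap as deposited only (0.473 to 0.813 against 0.830 to 1.45). The share of all genes without overlap was not computed here. Without *Pdgfra-tdT* saline mouse 3, 1 gene as deposited and 3 when scaled were called lower in *Acta2-tdT* cells, where 4.34% and 13.8% of all genes tested were lower in the same fits.

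With bleomycin the lines differed in many of these genes. As deposited, 36 of 37 genes tested were higher in *Acta2-tdT* than in *Pdgfra-tdT* cells and 0 lower, where 71.0% and 8.61% of all genes tested were. When scaled, 16 were higher and 1, *Hmmr*, lower, where 15.8% and 17.6% were. These were 4 of 11 S phase and 12 of 26 mitotic members higher. The shares beside these counts are over coding and non-coding genes. In the first comparison more nuclear protein-coding genes than all genes rose (89.7% against 70.4% as deposited, 31.1% against 23.9% when scaled). Such a share was not computed here or for the interaction. Of the 37 genes, 8 reached 1 FPKM in no *Pdgfra-tdT* bleomycin mouse and so were tested only through their *Acta2-tdT* values. Only 6 reached it in all 4 *Pdgfra-tdT* bleomycin mice. The others needed their *Acta2-tdT* values to be tested, which makes the counts among tested genes a description. All *Acta2-tdT* mice were above all *Pdgfra-tdT* mice in 37 of 43 genes as deposited (33 of the 37 tested), beside 56.8% of genes tested. They were below them in none, beside 5.96%. When scaled they were above in 17 of 43 (17 of the 37 tested), beside 18.9%, and below in 1, *Hmmr*, beside 14.7%. All 16 genes called higher here were also among the 29 that rose against saline, but both comparisons use the same *Acta2-tdT* bleomycin mice. Smooth muscle markers were higher in 6 of 6 and fibroblast markers in 5 of 6 tested in *Acta2-tdT* cells, and endothelial markers lower in 5 of 6, when scaled. Neutrophil markers made up 0.263% to 1.79% of the coding sum in *Acta2-tdT* and 0.0288% to 0.106% in *Pdgfra-tdT* bleomycin mice, without overlap, and macrophage markers 0.523% to 1.67% and 1.31% to 3.74%. Their part in the differences was not tested.

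*Spc25* had 25.2, 16.3, 45.7 and 44.8 FPKM in *Acta2-tdT* and 1.80, 0.397, 0.920 and 0.380 in *Pdgfra-tdT* bleomycin mice. *Mcm6* had 19.3, 11.7, 29.8 and 28.6 against 0.255, 1.11, 0.352 and 0.339. Neither gene came near overlap, and scaled differences were 1.66 (standard error 0.28, adjusted p = 0.00357) and 1.39 (standard error 0.28, adjusted p = 0.00571). *Cdc20* was higher by 1.64 (adjusted p = 0.012), *Ccnb2* by 1.34 (adjusted p = 0.0183), *Rrm2* by 1.21 (adjusted p = 0.0112), *Cenpa* by 1.20 (adjusted p = 0.039) and *Aurka* by 1.08 (adjusted p = 0.00568) when scaled. *Cdk1* (1.30, standard error 0.49, adjusted p = 0.0618) and *Birc5* (1.03, adjusted p = 0.0745) did not pass. *Mki67* differed by -0.06 and *Top2a* by 0.18, neither past the threshold, and *Hmmr* was lower, with a difference of -1.44 (adjusted p = 0.0141). Of the genes called, *Pbk* and *Plk1* lost the call in 7 of 8 fits that left out 1 mouse, *Cenpa*, *Ccna2* and *Rrm1* in 6, *Kif2c* in 5 and *Ccnb2* in 1. Without *Acta2-tdT* bleomycin mouse 6, 7 or 8, or without *Pdgfra-tdT* bleomycin mouse 6, 10 or 11 genes in all were called when scaled, and without *Pdgfra-tdT* bleomycin mouse 5, one of the mice that stood apart, 22 were, 21 higher and 1 lower, where 27.3% and 22.2% of all genes tested were.

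Whether bleomycin acted differently in the lines was tested as the interaction of line and agent over all 16 mice. As deposited, the rise was larger in *Acta2-tdT* cells for 36 of 37 genes tested, where 36.6% of all genes tested passed in this direction, and smaller for 0, where 3.20% passed. When scaled, it was larger for 7 of 37, where 1.33% passed, and smaller for 0, where 0.891% passed. The 7 were *Spc25* (2.08, standard error 0.32, adjusted p = 0.00234), *Cdc20* (1.85, adjusted p = 0.0386), *Aurka* (1.37, adjusted p = 0.0254), *Mcm6* (1.37, adjusted p = 0.0242), *Rrm2* (1.29, adjusted p = 0.0282), *Mcm2* (1.06, adjusted p = 0.0249) and *Aurkb* (0.83, adjusted p = 0.0118). Of these, 3 are S phase and 4 mitotic members. With the same genes tested, *Spc25* was called in all 16 fits that left out 1 mouse, whereas *Cdc20* lost the call in 14, *Rrm2* in 11, *Mcm6* in 8 and *Mcm2* and *Aurka* in 6. Of the 37 genes, 8 reached 1 FPKM in no mouse outside the *Acta2-tdT* bleomycin group, which makes the counts among tested genes a description. *Aurkb* is one of these 8 genes. It was called in all 16 fits, but could not be tested without any one of the 4 *Acta2-tdT* bleomycin mice when the filter was repeated. The count rested on single mice: it was 17 without *Pdgfra-tdT* bleomycin mouse 5 and 22 without both *Pdgfra-tdT* mice that stood apart, where 2.90% and 3.73% of all genes tested passed in this direction. It was 2 without *Acta2-tdT* saline mouse 1, *Acta2-tdT* saline mouse 2 or *Acta2-tdT* bleomycin mouse 7. It was 3 without *Pdgfra-tdT* saline mouse 4 or bleomycin mouse 7, and 4 without *Acta2-tdT* saline mouse 3 or 4, *Acta2-tdT* bleomycin mouse 8, *Pdgfra-tdT* saline mouse 1 or 2 or *Pdgfra-tdT* bleomycin mouse 8.

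**Figure D5:**
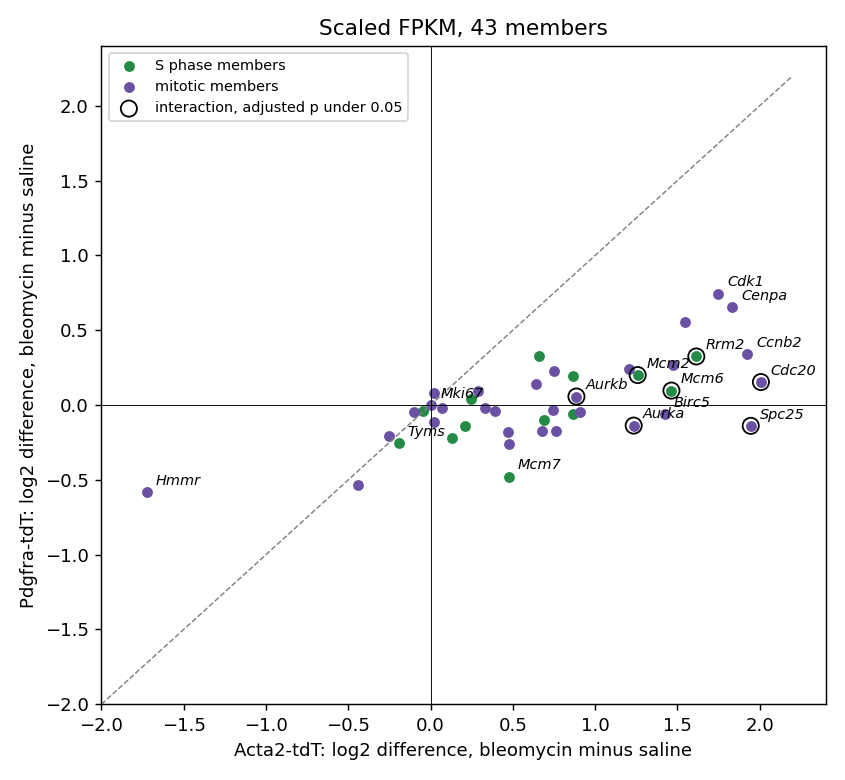
Scaled difference of mean log2(FPKM + 1), bleomycin minus saline, in *Acta2-tdT* mice (x axis) and in *Pdgfra-tdT* mice (y axis) for 43 genes, green for S phase and violet for mitotic members, with rings on the 7 whose interaction passed and a dashed line of equal differences. *Spc25* and *Cdc20* lie near 2 on the x axis and near 0 on the y axis.

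Of 125 other cell cycle genes, a list that holds G1 regulators, replication factors and further mitotic genes, 97 of 100 tested rose in *Acta2-tdT* cells as deposited, beside 70.4% of all genes tested and 89.7% of nuclear protein-coding genes. When scaled, 44 rose and 10 fell, beside 23.9% and 32.6% of all genes tested and 31.1% and 17.0% of nuclear protein-coding genes, shares against which the counts by role are also to be read. Only 26 of the 125 passed the filter between the lines with saline. Most of the 100 therefore needed their bleomycin values to be tested, which makes these counts a description. Replication polymerases, loaders and origin factors rose in 14 of 33 tested, with *Rfc4* of the clamp loader at 1.26 (adjusted p = 0.00186) and *Gins4* of the helicase at 0.90 (adjusted p = 0.00208). Subunits and activators of the anaphase-promoting complex rose in 8 of 14, with *Fzr1* at 1.43 and *Anapc5* at 1.10. Other kinetochore and spindle genes rose in 8 and fell in 3 of 14, with *Cdca8*, a partner of *Birc5*, at 2.01 and *Racgap1* of the midzone at -0.70. Cohesin, condensin and separase genes rose in 4 and fell in 2 of 10, with *Smc4* of condensin at 0.67 and securin, *Pttg1*, at -1.11.

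Regulators of G1 moved in both directions. Cyclins and kinases of G1 rose in 4 of 6 tested, with *Cdk4* at 2.21 (standard error 0.31, adjusted p = 0.00021) and *Ccnd2*, a D-type cyclin, at 0.93 (adjusted p = 0.0115) when scaled. *Cdk4* had 2.16, 1.5, 1.15 and 5.79 FPKM in saline and 103, 70.7, 121 and 154 in bleomycin mice, far apart. Inhibitors of cyclin-dependent kinases rose in 3 and fell in 2 of 6 tested. *Cdkn1a* (p21), the inhibitor that p53 induces, had 1.97, 1.90, 5.41 and 7.78 FPKM in saline and 87.3, 54.5, 142 and 175 in bleomycin mice, and *Cdkn2c* rose by 0.80. *Cdkn1a* rose by 1.64 when scaled (adjusted p = 0.00157), while *Cdkn1b* fell by 0.81 and *Cdkn1c* fell by 1.33. RB and E2F genes rose in 2 and fell in 1 of 5 tested, with *E2f4* and *Tfdp1* both at 0.97. The MuvB complex with *Mybl2* and *Foxm1* rose in 0 and fell in 1 of 5, with *Lin37* at -0.26 and *Rbbp4* at -0.16, neither past the threshold. *Foxm1* (0.20, adjusted p = 0.191) and *Mybl2* (0.11, adjusted p = 0.567), named after their values were seen, did not pass. Checkpoint genes rose in 1 (*Bub3*, 0.92) and fell in 1 (*Chek2*, -0.92) of 7.

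Between the lines with bleomycin, 98 of 104 tested of these 125 genes were higher in *Acta2-tdT* cells as deposited, beside 71.0% of all genes tested. When scaled, 24 were higher and 0 lower, beside 15.8% and 17.6%. Shares of nuclear protein-coding genes alone were not computed here. Only 20 of the 125 passed the filter within *Pdgfra-tdT* cells. Most of the 104 therefore needed their *Acta2-tdT* values to be tested, which makes these counts a description. In *Pdgfra-tdT* cells 0 of 20 tested were called between bleomycin and saline in limma on either scale, and 0 had an unadjusted p-value under 0.05 as deposited, where 0.0275% of all genes tested rose and 0.0962% fell. With saline, the kinase inhibitors *Cdkn1c* (1.67, adjusted p = 0.0204) and *Cdkn2c* (1.07, adjusted p = 0.0427) were higher in *Acta2-tdT* cells when scaled, beside 3.20% of all genes tested, and 0 of 26 tested passed as deposited, beside 2.72%, 5 of them with an unadjusted p-value under 0.05 in limma. The interaction passed for 82 of 107 as deposited, all with the larger rise in *Acta2-tdT* cells, beside 36.6%. When scaled it was larger in *Acta2-tdT* cells for *Kif22* (1.08) and *Anln* (0.84) and smaller for *Cdkn1c* (-1.56), beside 1.33% and 0.891% of all genes tested.

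Differences are also given by transcript length. By the longest GENCODE transcript, the 14 tested genes under 2500 bases had a median scaled difference of 1.36 (0.66 to 2.01) in *Acta2-tdT* cells. The 18 from 2500 to 4500 bases had 0.58 (-1.73 to 1.75), and the 4 over 4500 bases (*Cdc6*, *Top2a*, *Mki67* and *Cenpe*) had 0.23 (0.00 to 0.64). Spearman's rho between length and difference was -0.525 over 36 genes, 0.018 over 10 S phase and -0.684 over 26 mitotic members, and -0.245 over 9191 nuclear protein-coding genes. These genes share the same 8 libraries and are not independent, and the part of length in the values was not tested.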

How the data were processed

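Sorted tdTomato-positive cells of 16 mice, 4 in each group, were used for RNA sequencing, and groups follow the labels' line and agent. Reads were mapped to mm10 by TopHat2 2.1.1, which uses Bowtie2, and Cufflinks 2.1.1 gave the FPKM per gene that the authors deposited, 1 table for each mouse. No scaling between mice is known, and FPKM hold no counts, so depth is unknown and no counting interval was computed.

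FPKM were summed per Ensembl gene with Python 3.11.15, pandas 2.3.3 and NumPy 2.4.6, and plots drawn with matplotlib 3.10.9. Tests used R 4.3.3 with limma 3.58.1 (lmFit, eBayes with trend) on log2(FPKM + 1), fitted on all genes that reached an FPKM of 1 in 4 or more mice of the comparison. P-values are two-sided, with Benjamini-Hochberg adjustment over all genes tested and a threshold of 0.05. The same fit was made on FPKM scaled to a common nuclear protein-coding sum. The procedure was tested on simulated data. Mice are separate animals by the labels.

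The members and all gene lists were chosen with earlier results of these data known. Genes named one by one are, in each role group, the 2 with the largest mean FPKM, *Mki67* and *Top2a*, and in each comparison the called members with the 3 largest rises and the 3 largest falls. Of the other cell cycle genes, the 2 of each role group with the largest mean FPKM are named, and further members and other genes were named after their values were seen. Gene positions and lengths are from GENCODE M21 and promoters from RefSeq (GRCm38.p6), where 7 members were not matched. Alternatives were quality weights, no filter, a pseudocount of 0.1, a filter at a mean FPKM of 5, 1 fit of all 16 mice, a replicate block and each mouse left out. Quantile normalization, a pseudocount of 0.1 on scaled FPKM, leaving out both mice that stood apart and repeating the filter with a mouse left out were added after seeing the data.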

Additional observations from a re-analysis of the deposited data

Results flagged for a closer look

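In 22 genes and 4 groups, 88 sets of 4 mice were searched for a mouse whose gap to the nearest other, as a share of the range, exceeded Dixon's critical value for 4 values. Chance gives about 1 in 20 such sets where values are independent and normal, and the genes here share the same mice. For genes, searched on log2(FPKM + 1), 13 were found, all in *Pdgfra-tdT* mice, and on FPKM itself 16, of which 1 was in *Acta2-tdT* mice. On its own scale, the share of mitotic members gave 1. *Pdgfra-tdT* bleomycin mouse 5 was the highest of its group for *Cdk1* (14.0 FPKM), *Ccnb2* (8.26), *Pbk* (6.54), *Cdc20* (6.32) and *Aurka* (1.80). *Pdgfra-tdT* saline mouse 3 was the highest for *Pcna* (3.15) and *Aurka* (1.58) and the lowest for *Hmmr* (2.0), *Mki67* (0.289), *Ccnb2* (0.267) and the mitotic share of the coding sum (0.0274%). The others were *Mcm6* in *Pdgfra-tdT* bleomycin mouse 6 (1.11), *Cdk1* in *Pdgfra-tdT* saline mouse 2 (0.304) and *Ccne1* in *Pdgfra-tdT* saline mouse 1 (0.209). Saline 3 and bleomycin 5 are the 2 *Pdgfra-tdT* mice with high endothelial markers and the largest coding sums of their groups. The part of either in the values was not tested.

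The effect of bleomycin differed between the lines, by the interaction test in limma, for 36 of 37 genes as deposited and 7 when scaled, where 36.6% and 1.33% of all genes tested passed in this direction, and the scaled count was 2 to 17 with 1 mouse left out. The scaled differences of the 2 effects, *Acta2-tdT* minus *Pdgfra-tdT*, were 2.08 for *Spc25*, 1.85 for *Cdc20*, 1.37 for *Mcm6* and *Aurka*, 1.29 for *Rrm2*, 1.06 for *Mcm2* and 0.83 for *Aurkb*. With the same genes tested, *Spc25* and *Aurkb* kept the call whichever mouse was left out and the other 5 lost it in 6 to 14 of 16 such fits, but *Aurkb* reached 1 FPKM in the *Acta2-tdT* bleomycin mice alone and was not tested without any one of them when the filter was repeated.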

How the results depend on the processing

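A mean FPKM of at least 5 left 22 genes called of 23 tested between bleomycin and saline *Acta2-tdT* mice, 23 of 24 between the lines with bleomycin and 14 of 15 for the interaction, since fewer genes were tested, and it left no member to test in the other 2 comparisons. Scaling gave 17 genes between the lines with bleomycin and 7 for the interaction, and quantile normalization 15 and 11. With quality weights 1 gene was called lower in *Acta2-tdT* cells between the lines with saline. Without both *Pdgfra-tdT* mice that stood apart the scaled interaction had 22. The difference of *Tyms* between bleomycin and saline *Acta2-tdT* mice changed sign to -0.19 when scaled and -0.45 with quantile normalization, that of *Prc1* to -0.44 and -0.64, and that of *Hmmr* to -1.73 and -2.31; the cause was not tested.

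With each mouse left out in turn, counts of genes called were 35 to 35 as deposited and 27 to 30 when scaled in *Acta2-tdT* cells, 0 to 0 on both scales in *Pdgfra-tdT* cells, and 0 to 1 and 0 to 3 between the lines with saline. They were 36 to 36 and 10 to 22 between the lines with bleomycin, and 36 to 36 and 2 to 17 for the interaction. Repeating the filter without 1 *Acta2-tdT* bleomycin mouse left 9 genes tested and 8 called as deposited, since only 3 bleomycin mice then remained to reach 1 FPKM, and on scaled FPKM 6 or 7, of them 5 or 6 higher. Repeating it in the same way, the scaled counts were 6 to 8 between the lines with bleomycin and 1 to 6 for the interaction. Under the remaining settings and leave-one-out fits, 116 counts stayed within 1.5 times the reported ones.

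Mice with the same number in both lines had correlations of -0.0859 to 0.157 across genes with saline and -0.307 to 0.0712 with bleomycin. The mouse of the same number was the best match for saline mice 1 and 3, and not for saline mice 2 and 4 or any bleomycin mouse. With correlations this weak the numbers were not taken as pairs. With the replicate number as a block, 0 genes were called between the lines with saline on either scale. With bleomycin the block gave 36 as deposited and 12 when scaled, beside 17 when scaled without the block.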
